A study of Mus musculus with 48 samples.

Results

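The severe form of ischemia/reperfusion injury (IRI) was examined here 1 day after 40 minutes of ischemia, as 6 left kidneys (IRI) against the right kidneys (control) of the same 6 mice, which are 12 of the 48 kidney cortex libraries of the study. Kidneys were chosen by their labels alone: kidney, ischemia time and day. The mice were male C57BL/6 animals aged 6 to 8 weeks with no genetic change, and the left renal pedicle was clamped for 40 minutes and then released. The other libraries came from the same design with 20 minutes of ischemia or with day 3, and 2 of these sets of 12 kidneys (20 minutes on day 1, and 40 minutes on day 3) served to show where the severe injury on day 1 differed. Labels give each right kidney the day of its left kidney, whereas the methods describe taking out the right kidney ahead of the clamp. If the controls were collected at that time, the effect of ischemia and that of surgery or of having a single kidney cannot be told apart.

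When blood flow to a kidney stops, the proximal tubule suffers first, because its cells depend on oxidative metabolism for the reabsorption of sodium, phosphate, glucose and amino acids. The straight S3 segment in the outer stripe is the classical site of ischemic damage. Surviving tubular cells lose their brush border and polarity, switch off transporter genes, and turn on keratins, adhesion molecules and secreted injury proteins such as KIM-1 (Havcr1) and NGAL (Lcn2). Neutrophils enter within the first day, and macrophages and dividing tubular cells follow during repair.

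Values are FPKM, the fragments of a transcript scaled to its length and to the number of mapped fragments, which the authors calculated per transcript and which were summed here per gene. Calls of higher or lower required an adjusted p under 0.05 (limma, Benjamini-Hochberg) together with a change of at least 2-fold on log2(FPKM + 0.01). From the spacing of low FPKM values, the libraries held an estimated 12500000 to 16200000 read pairs in IRI kidneys and 10200000 to 12300000 in controls. These estimates are rough, since they were sought within a set range and the spacing was faint in some libraries. A difference in depth between the groups was not tested. The tissue label fitted the markers: in control kidneys the summed FPKM of 20 genes of the S1 and S2 segments ran from 6599 to 8500, of 12 podocyte genes from 119 to 171, and of 9 urothelial genes from 0.291 to 4.03.

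One library stood apart from its label. The library labelled IRI replicate 6 correlated at r = 0.976 with the mean of the IRI kidneys of day 3 after 40 minutes and at r = 0.937 with the other IRI kidneys of day 1 (a description over 11834 genes averaging 1 FPKM or more). IRI replicates 1 to 5 had r of 0.973 to 0.978 with their own group and of 0.934 to 0.944 with day 3. Of 12303 genes, 364 stood more than 2-fold above and 149 more than 2-fold below all other IRI kidneys of day 1 in replicate 6, whereas the other 5 kidneys had 4 to 23 and 42 to 93 such genes. Of all 24 IRI libraries of the study, 21 were closest to their own group. The other 2 exceptions were replicate 6 of 20 minutes on day 1 and replicate 4 of 20 minutes on day 3. Whether a library was exchanged was not tested, so all 6 kidneys are reported under their labels and results are also given without mouse 6 (both of its kidneys).

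**Figure D1:**
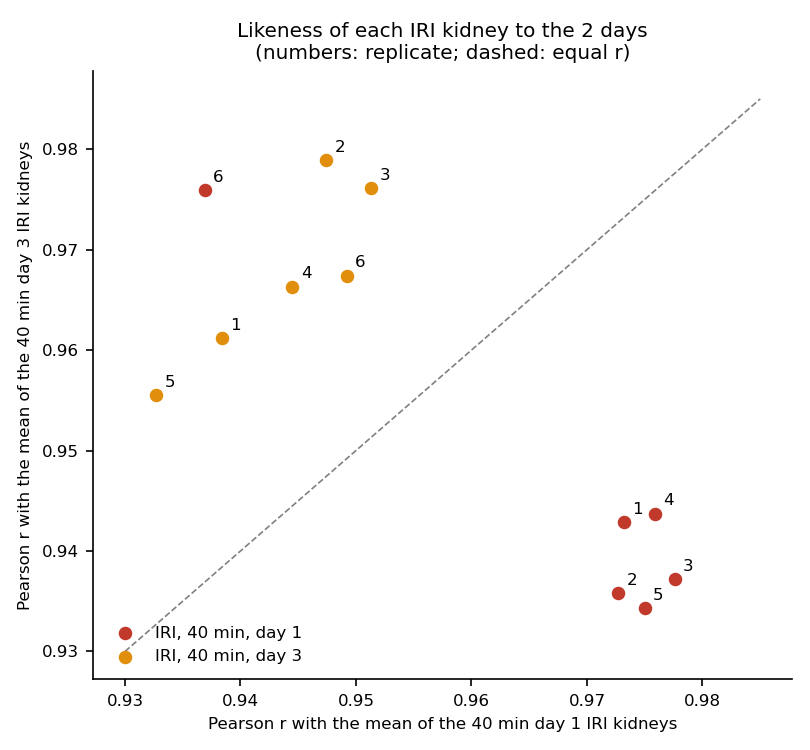
Each point is an IRI kidney after 40 minutes of ischemia, placed by its Pearson correlation with the mean of the day 1 IRI kidneys (horizontal axis) and of the day 3 IRI kidneys (vertical axis), leaving out the kidney itself. Day 1 replicate 6 (0.937, 0.976) lies among the day 3 kidneys, while day 1 replicates 1 to 5 lie between 0.973 and 0.978 on the horizontal axis.

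More genes were higher than lower in IRI kidneys. Of 14276 genes tested, 2244 were higher (15.7% of those tested) and 1055 were lower (7.39%). Without mouse 6 the counts were 2345 (16.5%) and 1150 (8.07%), and 2130 and 1004 of the genes called with all 6 mice were called again. All 6 IRI kidneys lay above all 6 controls for 3508 genes (24.6%) and below them for 1591 (11.1%). The median log2 fold change over all genes was 0.24. With libraries scaled to an equal median it was 0.01, and 1698 genes (11.9%) were higher and 1459 (10.2%) lower, so higher genes made up 53.8% of the calls in place of 68%. Because the cortex was sequenced in bulk, fewer cells of a type and less RNA per cell cannot be told apart.

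Among called genes without overlap and averaging 1 FPKM or more in IRI kidneys, the 10 with the largest log2 fold change were Krt20, Sprr2f, Sprr2g, Lcn2, Fosl1, Havcr1, Vgf, 1700001F09Rik, Timp1 and Spaca7. They comprise a keratin (Krt20, on chromosome 11 from 99428403 to 99438150, minus strand, GRCm38), small proline-rich proteins of cornified epithelium (Sprr2f, Sprr2g), the iron-siderophore binding protein NGAL (Lcn2), a subunit of the transcription factor AP-1 (Fosl1), the phosphatidylserine receptor KIM-1 (Havcr1), a neuropeptide precursor (Vgf) and an inhibitor of metalloproteinases (Timp1). Folds of such genes depend on the 0.01 FPKM added, since many control values are at or near 0.

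To show the sequence around the starts of these genes, promoter windows from RefSeq (GRCm38.p6, 250 bases before to 50 after a transcription start) were read for the 6 of the 10 that matched the promoter table. The recognition sequence of AP-1, the factor that Fosl1 belongs to, was searched as TGANTCA, and that of the TEAD factors of the Hippo pathway as GGAATG, both on either strand. AP-1 sequences were found in windows of 2 of the 6 genes and TEAD sequences in 3. The share of all 32851 windows with the first was 7.81% and with the second 14.7%, and matches are a description, not sites. A gene counted when any of its windows matched, and Havcr1 had several windows. Counts of genes and shares of windows are therefore not like measures. Printed here are Krt20 (chr11:99438104-99438403, minus strand), Sprr2f (chr3:92364937-92365236, plus strand) and the window of Havcr1 with a match (chr11:46750918-46751217, plus strand; the other 2 Havcr1 windows held none). Capitals mark either motif, and in Krt20 the first 2 of 3 TEAD matches share 1 base. The Havcr1 match lies in the last 50 bases of its window, after the transcription start and not upstream of it.
Krt20: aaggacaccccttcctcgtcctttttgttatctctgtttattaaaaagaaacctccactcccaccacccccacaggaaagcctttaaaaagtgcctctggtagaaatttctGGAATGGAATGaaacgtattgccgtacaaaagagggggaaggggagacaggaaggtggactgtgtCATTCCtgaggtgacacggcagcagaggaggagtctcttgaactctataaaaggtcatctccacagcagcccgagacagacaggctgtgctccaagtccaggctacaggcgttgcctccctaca
Sprr2f: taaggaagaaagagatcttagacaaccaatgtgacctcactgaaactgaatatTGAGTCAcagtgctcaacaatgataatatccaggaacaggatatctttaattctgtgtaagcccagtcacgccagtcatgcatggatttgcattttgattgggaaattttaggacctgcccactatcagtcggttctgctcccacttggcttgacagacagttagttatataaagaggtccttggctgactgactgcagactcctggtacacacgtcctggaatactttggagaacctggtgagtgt
Havcr1: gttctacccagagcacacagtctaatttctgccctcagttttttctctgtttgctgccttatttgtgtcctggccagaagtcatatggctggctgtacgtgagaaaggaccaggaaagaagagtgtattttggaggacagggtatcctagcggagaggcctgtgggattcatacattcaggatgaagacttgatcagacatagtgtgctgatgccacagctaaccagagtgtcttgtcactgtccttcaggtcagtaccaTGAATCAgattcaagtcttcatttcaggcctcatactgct

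Sprr2f stood at 9.35, 35.04 and 54.3 FPKM (lowest, median, highest of 6) in IRI kidneys and is listed at 0 in all 6 controls, so no fold is given. Sprr2f and Sprr2g belong to a cluster of closely similar genes on chromosome 3, among which reads may have been shared. Fosl1 stood at 2.34, 17.6 and 22.4 FPKM in IRI kidneys and at 0, 0 and 0.193 FPKM in controls (log2 fold change 9.18, standard error 0.82, limma adjusted p = 1.1e-06). IRI and control kidneys did not overlap for either gene, and the lowest IRI value of both was that of replicate 6. Without mouse 6 Fosl1 had a log2 fold change of 10.31. Timp1 stood at 32.3, 52.3 and 60.5 FPKM in IRI kidneys and at 0, 0.162 and 1.09 FPKM in controls (log2 fold change 8.77, standard error 1.05, limma adjusted p = 1.3e-05; 9.38 without mouse 6). Here replicate 6, at 58.2 FPKM, lay among the other IRI kidneys. Vgf stood at 0.471, 7.82 and 11.4, 1700001F09Rik at 1.09, 6.13 and 8.17 and Spaca7 at 2.32, 3.97 and 5.10 FPKM in IRI kidneys, and all 3 are listed at 0 in every control.

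Replicate 6 held the lowest value of the 6 IRI kidneys for Krt20 (56.9 FPKM, against 131 to 304 in the other IRI kidneys), Havcr1 (171 against 714 to 1026) and Lcn2 (418 against 569 to 1040). Control kidneys held 0 to 0.0859 FPKM of Krt20, 0.497 to 3.32 of Havcr1 and 0.000390 to 4.98 of Lcn2. The log2 fold changes were 11.85 for Krt20, 9.12 for Havcr1 and 9.66 for Lcn2 with mouse 6, and 12.2, 9.81 and 10.31 without it. For Lcn2 control replicate 4 held the 0.000390 FPKM, and the other controls held 0.963 to 4.98 FPKM. The log2 fold change of Lcn2 ran from 8.36 to 10.14 when 1 library was left out. In the day 3 IRI kidneys after 40 minutes Krt20 stood at 58.3 to 127 FPKM, Havcr1 at 80.4 to 289.8 and Lcn2 at 281 to 440.3.

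**Figure D2:**
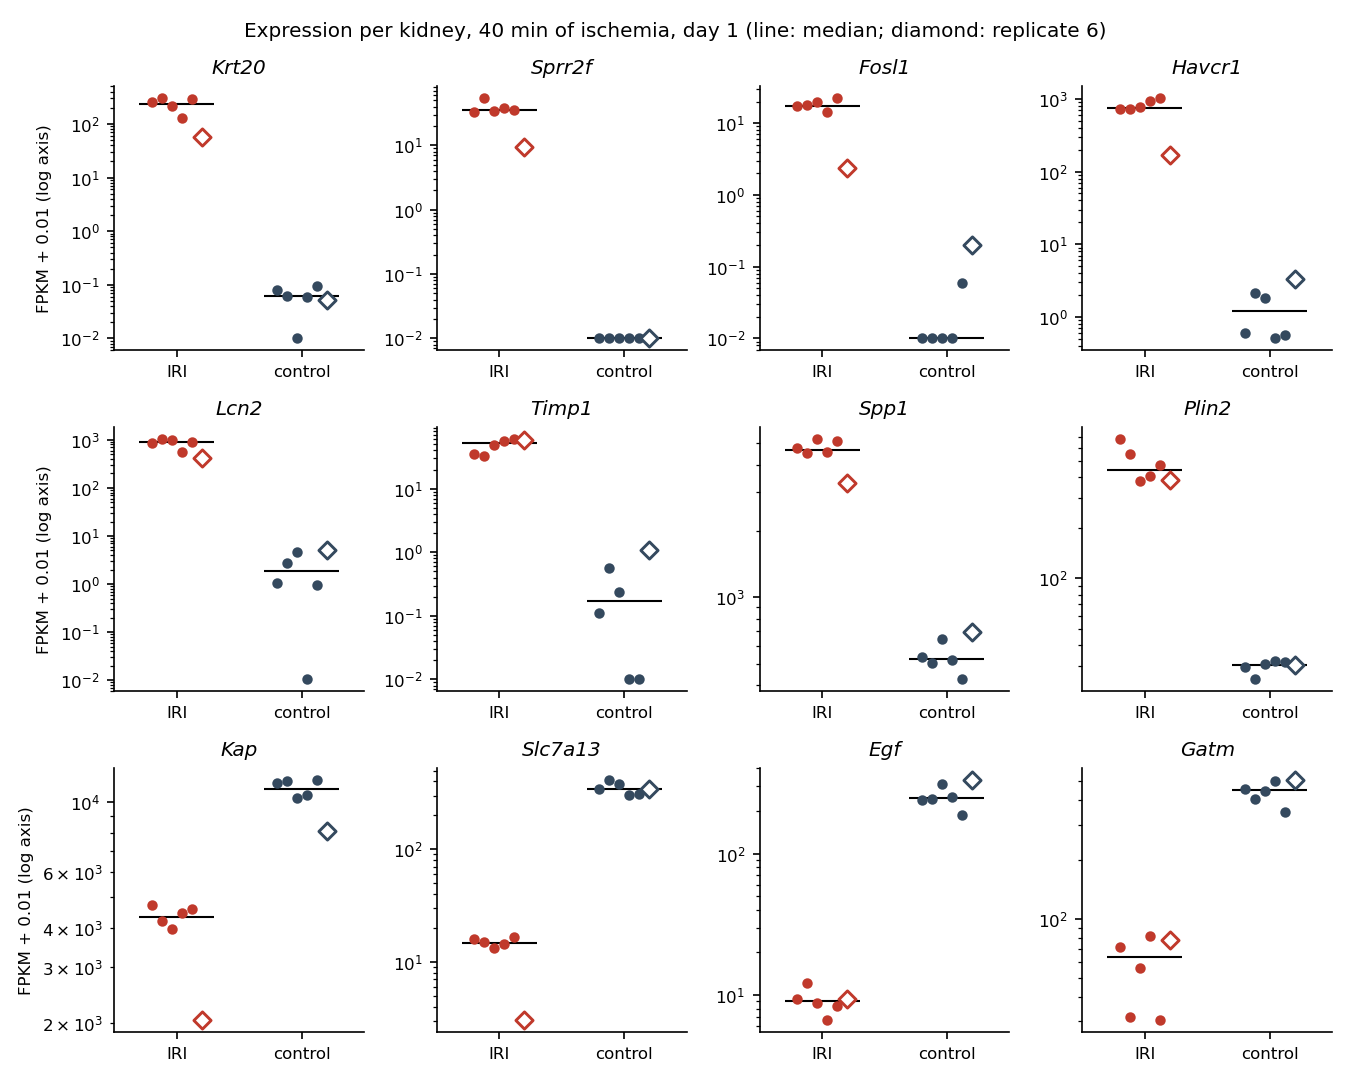
FPKM plus 0.01 on a log axis in each kidney for 12 genes, with IRI kidneys left of control kidneys, a line at the median and a diamond for replicate 6. IRI and control kidneys do not overlap for any of the 12, and in Krt20, Sprr2f, Fosl1, Havcr1, Lcn2, Spp1, Kap and Slc7a13 the lowest IRI value is that of replicate 6.

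By amount of message, the 10 called genes with the largest gain in mean FPKM were Spp1, Lcn2, Havcr1, Clu, Mt2, S100a11, Mt1, Plin2, S100a10 and Ctsd. Together they made up 1.86% to 3.01% of all FPKM in IRI kidneys and 0.296% to 0.387% in controls. Spp1, which encodes the matrix cytokine osteopontin, stood at 3310, 4658 and 5225 FPKM in IRI kidneys and at 423, 525 and 694 FPKM in controls (log2 fold change 3.06, standard error 0.14, limma adjusted p = 3.5e-09). Plin2, the coat protein of lipid droplets, stood at 379.9, 441 and 678 FPKM in IRI kidneys and at 24.9, 30.5 and 32.1 FPKM in controls (log2 fold change 3.98, standard error 0.13, limma adjusted p = 6.4e-10). Both genes separated the groups, and for Plin2 replicate 6 (386 FPKM) lay within the other IRI kidneys. The metallothioneins, which bind zinc and copper and are similar in sequence, rose by 4.04 (Mt2) and 2.6 (Mt1) on the log2 scale, and the chaperone clusterin (Clu) rose by 2.78. Ctsd, a lysosomal protease, rose by 1.5, with IRI values of 518 to 635 FPKM and control values of 186 to 216 FPKM.

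Each list of genes of the tubule segments had a negative median. Of 19 genes of the S3 segment of the proximal tubule, 16 were lower, with a median log2 fold change of -2.11 beside 0.24 over all genes. Of 20 genes of the S1 and S2 segments, 10 were lower (median -0.97), of 15 genes of the thick ascending limb 10 (median -1.29), of 12 genes of the distal convoluted tubule 6 (median -1.03), of 12 genes of intercalated cells 4 (median -0.87) and of 12 genes of collecting duct principal cells 2 (median -0.52). Of all genes 7.39% were lower. No gene of these lists was higher with all 6 mice, and 10 of the 12 principal cell genes were not called. Differences between the lists were not tested. Without mouse 6 the numbers lower were 16, 12, 10, 6, 5 and 2 in the same order, and 1 principal cell gene was higher. With libraries scaled to an equal median they were 16, 12, 10, 7, 7 and 3, beside 10.2% of all genes.

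In the S3 segment the amino acid exchanger Slc7a13 stood at 3.02, 14.6 and 16.8 FPKM in IRI kidneys and at 306, 346 and 412 FPKM in controls (log2 fold change -4.92, standard error 0.35, limma adjusted p = 1.5e-07). Without mouse 6, which held the lowest value, its log2 fold change was -4.53. Slc22a7, an organic anion transporter named after its values were seen, stood at 0.562 to 4.41 FPKM in IRI kidneys and at 50.8 to 82.5 FPKM in controls (log2 fold change -4.84, limma adjusted p = 4.3e-07). Slc22a13, another transporter of that family, fell by 4.5, and Aadat, an aminotransferase of the kynurenine pathway, fell by 2.67. IRI and control kidneys did not overlap for these 4 genes.

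Kap, the androgen-regulated kidney protein and by far the most abundant lower gene of the S3 list, alone took 0.529% to 1.18% of all FPKM in IRI kidneys and 2.05% to 2.88% in controls. It stood at 2032, 4312 and 4716 FPKM in IRI kidneys and at 8120, 11001 and 11745 FPKM in controls, and it fell by 1.46 as a log2 difference (standard error 0.19, limma adjusted p = 2.7e-05). The 10 called genes with the largest loss in mean FPKM were Kap, Slc34a1, Miox, Akr1c21, Napsa, Keg1, Ass1, Slc27a2, Cltrn and Ndrg1. They made up 1.69% to 1.90% of all FPKM in IRI kidneys, with replicate 6 at 1.72%, and 4.35% to 5.31% in controls. The sum hides opposite departures of replicate 6, which was the lowest IRI kidney for Kap (0.529% of all FPKM). It was the highest for Slc34a1, Miox, Akr1c21, Keg1, Ass1, Slc27a2 and Ndrg1. Ndrg1, a stress-responsive gene of many epithelia, lay at the threshold (log2 fold change -1.01). Its fold was under 2 when IRI replicate 1, 3, 4 or 5 or control replicate 1, 4 or 6 was left out (-1.12 to -0.96 over the 12 libraries).

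In the S1 and S2 segments Slc34a1, the sodium phosphate cotransporter NaPi-IIa, stood at 348, 411 and 663 FPKM in IRI kidneys and at 1313, 1500 and 1766 FPKM in controls (log2 fold change -1.81, limma adjusted p = 4.3e-07). Slc34a3, the related NaPi-IIc, fell by 2.78, and Slc3a1, a subunit of the cystine transporter, fell by 1.55. Endocytic receptors of the brush border, named after their values were seen, fell as well, Lrp2 (megalin) by 1.76 and Cubn (cubilin) by 1.57. For Slc34a1, Slc3a1 and Cubn the highest IRI value was that of replicate 6, and the groups did not overlap. The summed FPKM of the S1 and S2 list was 2250 to 3406 in IRI replicates 1 to 5, 6011 in replicate 6 and 6599 to 8500 in controls. The day 3 IRI kidneys after 40 minutes held 5408 to 6860. For the summed S3 list replicate 6 went the other way, with 3453 against 4888 to 5943 in the other 5 IRI kidneys, 11212 to 15766 in controls and 3063 to 5344 on day 3. Most of this sum was Kap, at 2032 FPKM in replicate 6 and 3962 to 4716 FPKM in the other 5 IRI kidneys. Other S3 genes went both ways in replicate 6, with Slc7a13 lowest there and Aadat (28.4 FPKM) and Slc22a13 (2.51 FPKM) highest. The sum therefore does not describe the segment as a whole.

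Beyond the proximal tubule, Egf, the growth factor precursor of the thick ascending limb and distal tubule, stood at 6.61, 9.04 and 12.2 FPKM in IRI kidneys and at 187, 247 and 331 FPKM in controls (log2 fold change -4.83, standard error 0.15, limma adjusted p = 4.7e-10). Replicate 6 (9.37 FPKM) lay among the other IRI kidneys. Bsnd, a chloride channel subunit, fell by 1.85, and Slc12a1, the cotransporter NKCC2, named after its values were seen, by 1.74. Umod, which encodes the urinary protein uromodulin and was likewise named afterwards, stood at 421, 624 and 763 FPKM in IRI kidneys and at 454, 571 and 695 FPKM in controls, which overlapped (log2 fold change 0.05, limma adjusted p = 0.83). In the distal convoluted tubule, Pvalb, the calcium buffer parvalbumin, stood at 0.0777, 0.916 and 1.11 FPKM in IRI kidneys and at 14.1, 17.8 and 23.5 FPKM in controls. Kl, which encodes the FGF23 coreceptor klotho, stood at 31.2, 37.1 and 44.5 FPKM in IRI kidneys and at 147, 156 and 189 FPKM in controls. Klotho fell by 2.1 in log2 terms (standard error 0.09, limma adjusted p = 2.9e-09), and both genes separated the groups.

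In collecting duct principal cells Avpr2, the vasopressin receptor, fell by 1.75, and Aqp3, a basolateral water channel, lay at the threshold, with 34.3, 39.6 and 45.4 FPKM in IRI kidneys and 67.4, 78.4 and 94.1 FPKM in controls (log2 fold change -1.01). The Aqp3 groups did not overlap, but its fold was under 2 when IRI replicate 4, 5 or 6 or control replicate 1, 3 or 5 was left out (-1.05 to -0.96 over the 12 libraries). Of 12 podocyte genes none was called (median -0.14), beside 15.7% of all genes higher and 7.39% lower. Nphs1, of the slit diaphragm, stood at 3.06, 3.86 and 5.09 FPKM in IRI kidneys and at 5.65, 8.14 and 9.08 FPKM in controls without overlap (log2 fold change -0.93, limma adjusted p = 2.1e-04). It missed the fold threshold and passed it when IRI replicate 6 or control replicate 2 was left out (-1.01 to -0.86 over the 12 libraries) or with libraries scaled to an equal median (-1.16).

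**Figure D3:**
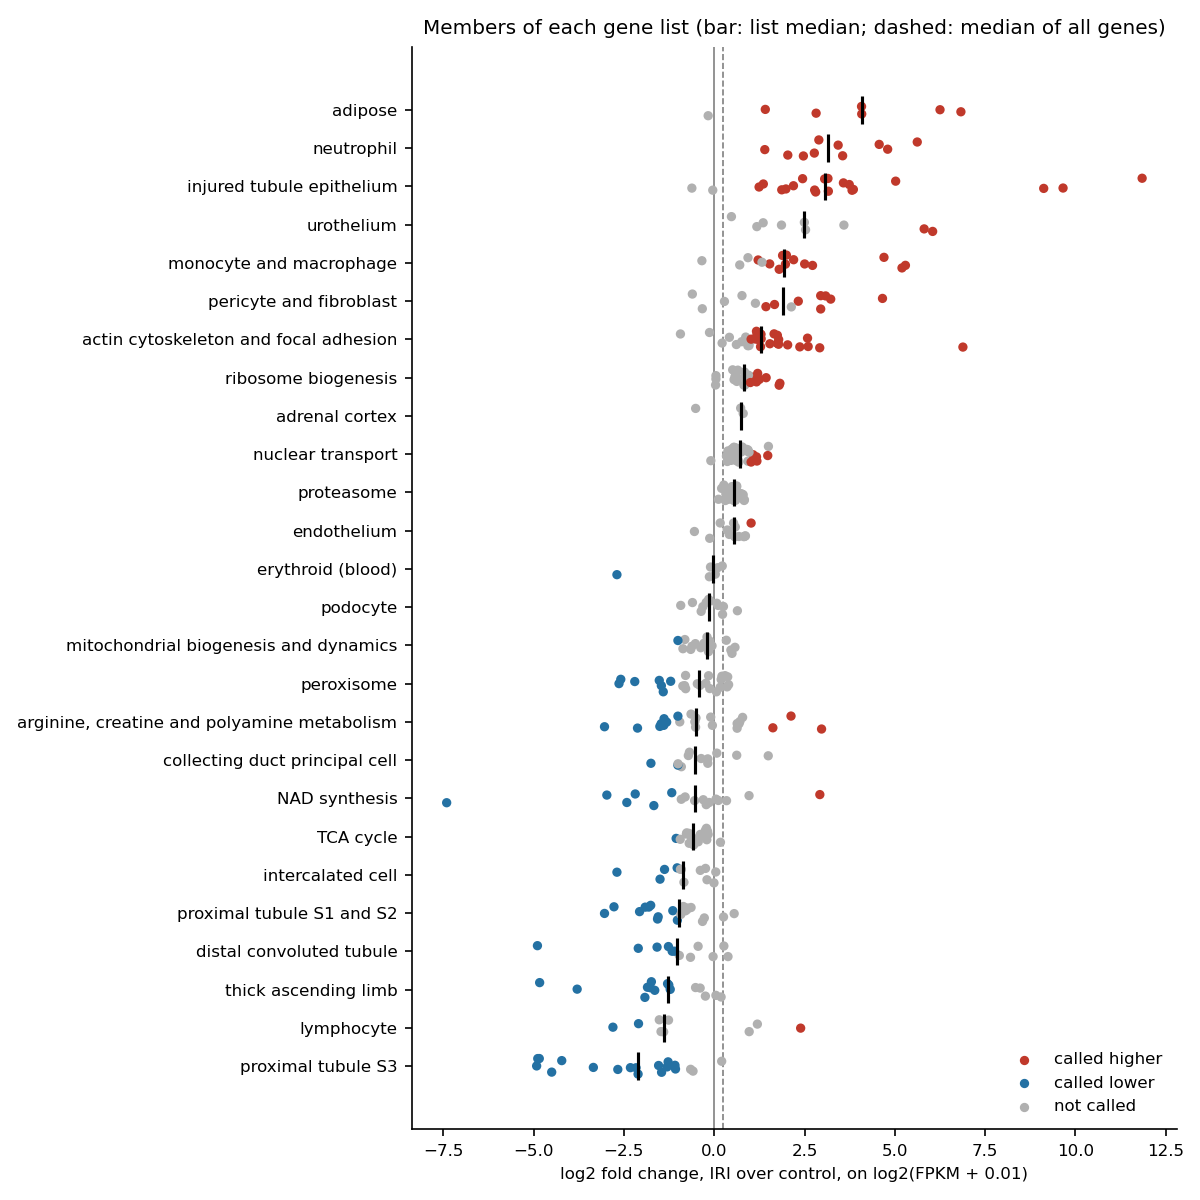
Log2 fold change (IRI over control) of every tested member of the 26 gene lists, ordered by list median (bar), with called genes coloured and the median of all genes, 0.24, as a dashed line. S3 genes lie furthest to the left, with a median of -2.11, and the injured epithelium list has a median of 3.06.

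By the same rule as for the rises, the largest falls were those of Serpina1c, Adgrg4, Ido2, A4gnt, Serpina1e, Car5a, Mpped1, Mettl7a3, C8a and Fancd2os. Serpina1c, a gene of the alpha-1 antitrypsin cluster, stood at 0, 0.0391 and 1.08 FPKM in IRI kidneys and at 8.63, 15.6 and 19.5 FPKM in controls, and the highest IRI value was that of replicate 1. Serpina1c and Serpina1e are near-identical copies, so reads may have been shared between them. Adgrg4, an adhesion G protein-coupled receptor, stood at 0, 0 and 0.697 FPKM in IRI kidneys and at 5.75, 7.29 and 9.25 FPKM in controls. Mettl7a3 stood at 0, 0.431 and 0.744 FPKM in IRI kidneys and at 5.95, 14.1 and 19.9 FPKM in controls. Car5a, the mitochondrial carbonic anhydrase, stood at 0, 0.0158 and 0.122 FPKM in IRI kidneys and at 1.03, 1.77 and 2.02 FPKM in controls. Groups did not overlap for any of the 10, whose log2 fold changes ran from -8.3 to -5.72 and which were called without mouse 6 as well.

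Metabolic genes were lower at particular steps. Of 17 genes of NAD synthesis tested, 6 were lower (Ido2, Afmid, Kmo, Haao, Acmsd and Nmrk1) and 1, Nnmt, was higher, with a median of -0.54 (6 lower and 2 higher without mouse 6). Of all genes 7.39% were lower and 15.7% higher. Ido2, Afmid, Kmo and Haao belong to the path from tryptophan, Acmsd diverts that path away from NAD, and Nnmt methylates nicotinamide. Haao stood at 23.8, 27.4 and 57.7 FPKM in IRI kidneys, the highest in replicate 6, and at 116, 139.7 and 163 FPKM in controls (log2 fold change -2.19, limma adjusted p = 7.3e-07). Acmsd stood at 5.44, 14.01 and 17.5 FPKM in IRI kidneys and at 71.8, 87.4 and 109 FPKM in controls. Neither gene overlapped between the groups. Qprt, the enzyme that commits the path to NAD, stood at 23.9, 26.6 and 29.9 FPKM in IRI kidneys and at 26.9, 32.1 and 35.3 FPKM in controls, and Nampt, the salvage enzyme, at 33.03, 39.7 and 41.96 FPKM in IRI kidneys and at 34.3, 36.99 and 42.7 FPKM in controls. Their values overlapped and neither was called (log2 fold changes -0.22 and 0.05). Acmsd, Qprt and Nampt were named after their values were seen.

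Of 23 genes of arginine, creatine and polyamine metabolism, 8 were lower and 3 higher (Arg2, Srm and Smox), with a median of -0.52. Of all genes 7.39% were lower and 15.7% higher, so the share higher was near that of all genes. Gatm and Gamt, the 2 enzymes of creatine synthesis, fell by 3.04 and 2.12. Gatm stood at 30.4, 63.9 and 81.6 FPKM in IRI kidneys and at 351, 452 and 509 FPKM in controls (standard error of the log2 fold change 0.25, limma adjusted p = 4.9e-07). Ass1, the enzyme that makes argininosuccinate, stood at 293 to 386 FPKM in IRI replicates 1 to 5, at 842 FPKM in replicate 6 and at 860.4 to 1211 FPKM in controls, with a log2 fold change of -1.39, and of -1.66 without mouse 6. In the opposite direction, Arg2, the mitochondrial arginase, stood at 23.02, 32.6 and 39.3 FPKM in IRI kidneys and at 1.87, 4.56 and 6.83 FPKM in controls. Smox, spermine oxidase, stood at 5.54, 8.86 and 10.3 FPKM in IRI kidneys and at 1.37, 1.93 and 2.22 FPKM in controls (log2 fold change 2.13, limma adjusted p = 3.5e-07). Both separated the groups. Gamt and Arg2 were named after their values were seen.

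Of 24 peroxisomal genes tested, 7 were lower and none higher (median -0.43), beside 7.39% of all genes lower. With the equal median 11 were lower, beside 10.2% of all genes. Among them Amacr, a racemase for branched fatty acids, fell by 2.64, Hao2, a hydroxyacid oxidase, by 2.59 and Acox2, which shortens bile acid side chains, by 2.2. The summed FPKM of the list was 1596 to 2584 in IRI replicates 1 to 5 and 3666 in replicate 6, against 2812 to 3155 in controls, so replicate 6 lay above the controls and the others below. For the tricarboxylic acid cycle the differences were small. Of 22 genes 1 was called lower, beside 7.39% of all genes. It was Idh2, an isocitrate dehydrogenase (log2 fold change -1.05, named after its values were seen). For 16 of the 22 all 6 IRI kidneys lay below all 6 controls, beside 11.1% of all genes. Without mouse 6, 2 were called lower, and with the equal median 3. Sdha, the flavoprotein subunit of succinate dehydrogenase, stood at 157, 169 and 175 FPKM in IRI kidneys and at 269, 279.8 and 315 FPKM in controls (log2 fold change -0.76, limma adjusted p = 1.1e-07), short of 2-fold. Of 18 genes of mitochondrial biogenesis and dynamics 1 was called lower, a share near the 7.39% of all genes. It was Pink1, a kinase of mitophagy, at a log2 fold change of -1.0. With the equal median 3 genes of this list were lower, beside 10.2% of all genes. Pink1 lay under the fold threshold when IRI replicate 1, 2, 3, 4 or 5 or control replicate 1 or 5 was left out (-1.08 to -0.97 over the 12 libraries). Ppargc1a, the coactivator of mitochondrial biogenesis, stood at 8.47, 9.13 and 10.7 FPKM in IRI kidneys and at 12.6, 16.96 and 21.6 FPKM in controls, a log2 fold change of -0.87 that was not called (-1.1 and called with libraries scaled to an equal median).

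Of 21 genes of the injured tubule epithelium, 19 were higher and none lower (median 3.06), beside 15.7% of all genes higher. Krt20 was picked by the study from these libraries, and the members of the list were chosen with earlier results of these data known. The count is therefore not independent evidence of the direction. Plaur, the urokinase receptor, stood at 15.8, 33.6 and 45.98 FPKM in IRI kidneys and at 1.75, 2.01 and 3.07 FPKM in controls. Cldn4, a tight junction protein, stood at 45.5, 76.9 and 90.7 FPKM in IRI kidneys and at 5.07, 5.81 and 7.22 FPKM in controls. Cd44, a hyaluronan receptor, stood at 5.76, 8.89 and 13.1 FPKM in IRI kidneys and at 0.325, 0.625 and 1.002 FPKM in controls. For these 3 genes, named after their values were seen, the groups did not overlap, and replicate 6 was lowest for Plaur and Cldn4 and highest for Cd44.

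Of 32 genes of the actin cytoskeleton and focal adhesions, 22 were higher and none lower (median 1.28), beside 15.7% of all genes higher. All IRI kidneys lay above all controls for 28 of them, beside 24.6% of all genes. The cell type these transcripts came from was not tested. With libraries scaled to an equal median 18 were higher and 1 lower, beside 11.9% and 10.2% of all genes. Actn1, an actin crosslinker, stood at 40.5, 69.7 and 90.2 FPKM in IRI kidneys and at 6.87, 8.84 and 9.78 FPKM in controls (log2 fold change 2.92, standard error 0.16, limma adjusted p = 2.0e-08). Flna, filamin A, rose by 2.37 and Tagln2, transgelin 2, rose by 1.66. The groups did not overlap for these 3, and replicate 6 was the lowest IRI kidney for Actn1 and Flna. Flnc, the muscle filamin, named after its values were seen, had the largest rise of the list, with 2.42 to 11.3 FPKM in IRI kidneys and 0.00405 to 0.128 FPKM in controls (log2 fold change 6.88).

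Of 25 genes of ribosome biogenesis 9 were higher (median 0.84), beside 15.7% of all genes. With libraries scaled to an equal median 4 were, beside 11.9%. Npm1, a nucleolar chaperone among the 9, stood at 216, 243 and 279 FPKM in IRI kidneys and at 101, 105 and 114 FPKM in controls (log2 fold change 1.2, standard error 0.07, limma adjusted p = 3.7e-08). With the equal median Npm1 was not called (0.97). Of 26 genes of nuclear transport 5 were higher (median 0.72; 9 without mouse 6, and 1 with the equal median), a share near the 15.7% of all genes (11.9% with the equal median). Kpnb1, importin beta, stood at 42.1, 60.1 and 62.6 FPKM in IRI kidneys and at 22.7, 25.1 and 26.8 FPKM in controls (log2 fold change 1.17; 0.94 and not called with the equal median). Of 32 proteasome genes none was called (median 0.55), and 8 had all IRI kidneys above all controls, a share near the 24.6% of all genes. The summed FPKM of the proteasome list was 3274 to 3572 in IRI replicates 1 to 5, 2280 in replicate 6 and 2087 to 2421 in controls, so replicate 6 lay within the control range. Psma5, a proteasome core subunit, stood at 83.1 to 92.1 FPKM in IRI replicates 1 to 5, at 58.1 FPKM in replicate 6 and at 41.4 to 53.5 FPKM in controls, and its log2 fold change of 0.83 was short of 2-fold.

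All 10 neutrophil genes tested of 14 listed were higher (median 3.16), beside 15.7% of all genes. Ly6g, Mpo, Elane and Cd177 were not among the genes tested. Those that passed the minimum may have done so through the IRI kidneys, so the count describes these 10 only. S100a8, a calcium-binding protein of neutrophil granules named after its values were seen, stood at 7.49, 14.9 and 21.2 FPKM in IRI kidneys and at 1.06, 2.94 and 5.19 FPKM in controls (log2 fold change 2.47, limma adjusted p = 5.7e-05). Csf3r, the receptor of G-CSF, stood at 1.53, 2.19 and 3.55 FPKM in IRI kidneys and at 0.218, 0.332 and 0.400 FPKM in controls. Replicate 6 held the lowest IRI value of both, and the groups did not overlap. Its summed neutrophil level was 21.5 FPKM, against 39.4 to 58.4 in the other IRI kidneys, 3.42 to 15.9 in controls and 10.2 to 19.8 in the IRI kidneys of day 3.

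Of 16 monocyte and macrophage genes 12 were higher and none lower (median 1.93), and 10 were higher without mouse 6. Of all genes 15.7% were higher, and 16.5% without mouse 6. Chil3, a chitinase-like protein of monocytes, stood at 4.23, 10.3 and 13.01 FPKM in IRI kidneys, the lowest in replicate 6, and at 0.208, 0.305 and 0.628 FPKM in controls. C1qa, a complement subunit made by macrophages, stood at 22.8, 32.5 and 82.8 FPKM in IRI kidneys, the highest in replicate 6, and at 6.005, 9.38 and 18.9 FPKM in controls. The groups did not overlap for either gene. Lyz2, lysozyme, stood at 19.1, 45.2 and 289 FPKM in IRI kidneys, again highest in replicate 6, and at 10.7, 24.8 and 53.1 FPKM in controls, with overlap (log2 fold change 1.32, limma adjusted p = 0.08, not called). The summed macrophage level was 145 to 394 FPKM in IRI replicates 1 to 5, 704 in replicate 6, 60.9 to 112 in controls and 338 to 757 in the day 3 IRI kidneys. Adgre1 (F4/80) and Ccr2, the receptor for CCL2, were called with all 6 mice at log2 fold changes of 1.54 and 1.22, and not without mouse 6 (1.36 and 0.93). C1qa, Lyz2, Adgre1 and Ccr2 were named after their values were seen.

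Of 9 lymphocyte genes tested, 1 was higher (Cd4) and 2 were lower (Cd3g and Nkg7), all under 1 FPKM in every kidney and with overlap of the groups. Of all genes 15.7% were higher and 7.39% lower. Without mouse 6, 4 were lower. From limma, Cd4 had an adjusted p of 0.026, Cd3g of 0.046 and Nkg7 of 0.041, and log2 fold changes ran from 1.89 to 2.75 for Cd4, from -2.61 to -1.43 for Cd3g and from -3.69 to -2.37 for Nkg7 when 1 library was left out. The call of Cd4 was lost without IRI replicate 4 or 6 or control replicate 3 or 4. That of Cd3g was lost without IRI replicate 1, 2, 4 or 5 or control replicate 1, 2, 3 or 6, and that of Nkg7 without IRI replicate 1, 3 or 4 or control replicate 1, 2, 4, 5 or 6.

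**Figure D4:**
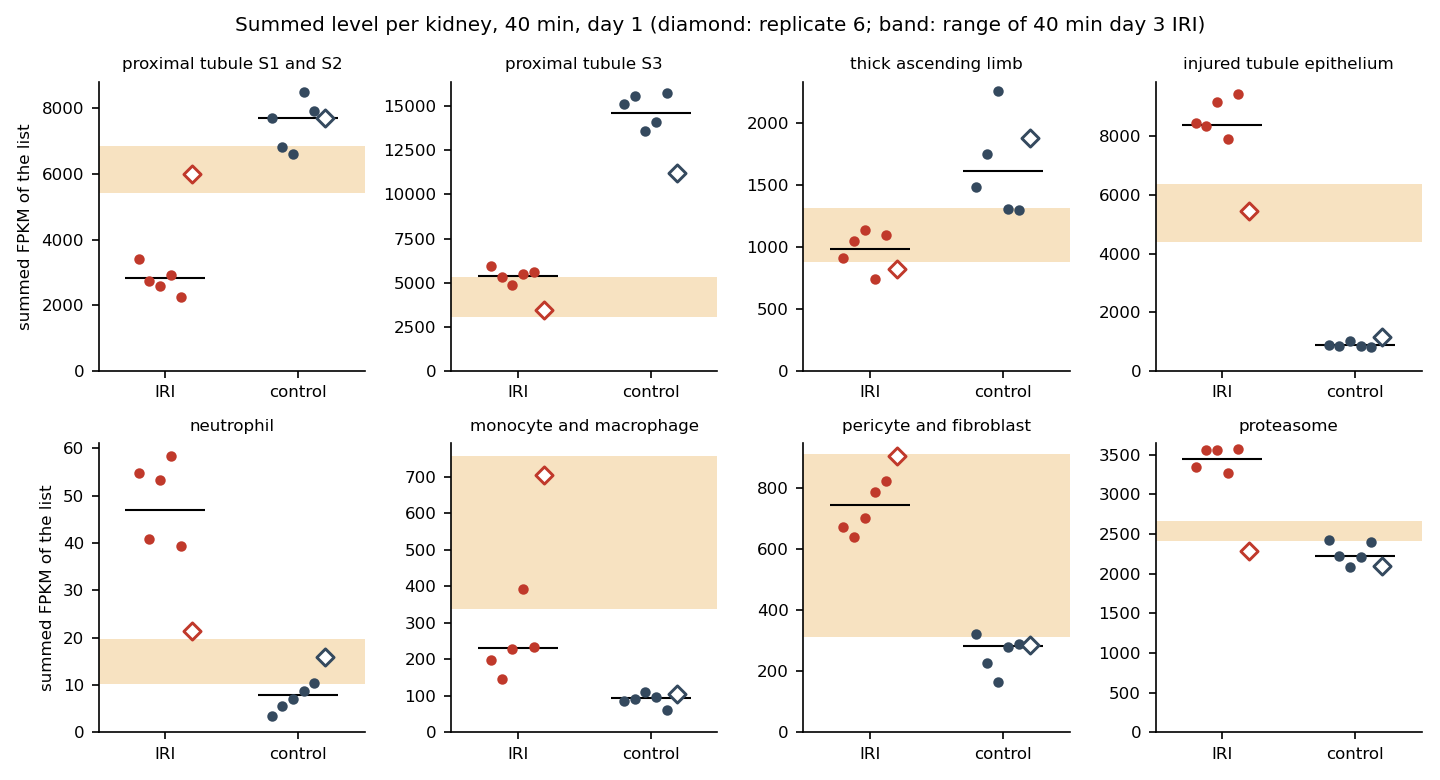
Summed FPKM of 8 gene lists in each kidney, with IRI kidneys left of control kidneys, medians as lines, replicate 6 as a diamond and the range of the day 3 IRI kidneys after 40 minutes as a band. Replicate 6 lies within the band for S1 and S2 (6011), S3 (3453), injured epithelium (5446), macrophages (704) and pericytes and fibroblasts (906). It lies outside the band for the thick ascending limb (822), neutrophils (21.5) and the proteasome (2280).

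In the interstitium, 8 of 14 pericyte and fibroblast genes were higher (median 1.9), beside 15.7% of all genes. Postn, the matricellular protein periostin, stood at 5.34, 8.53 and 15.5 FPKM in IRI kidneys and at 0.124, 0.324 and 0.848 FPKM in controls (log2 fold change 4.66, limma adjusted p = 4.5e-07). Acta2, smooth muscle actin, stood at 77.2, 211 and 261 FPKM in IRI kidneys and at 13.8, 28.04 and 33.04 FPKM in controls. The groups did not overlap for either, and replicate 6 was highest for Postn and lowest for Acta2. Col1a1, a collagen gene named after its values were seen, stood at 14.8, 25.1 and 113 FPKM in IRI kidneys, the highest in replicate 6, and at 2.59, 3.23 and 4.14 FPKM in controls. Of 14 endothelial genes 1 was higher, the adhesion molecule Pecam1 (median 0.55), a share below the 15.7% of all genes. Pecam1 stood at 22.6, 35.7 and 39.95 FPKM in IRI kidneys, the lowest in replicate 6, and at 13.1, 15.3 and 23.6 FPKM in controls, with overlap. Pecam1 had a log2 fold change of 1.02 (limma adjusted p = 1.3e-04), and the call was lost when IRI replicate 2, 3 or 5 or control replicate 1, 4 or 5 was left out (0.96 to 1.13 over the 12 libraries). Without mouse 6, 3 endothelial genes were higher, beside 16.5% of all genes. With libraries scaled to an equal median none was, beside 11.9% of all genes.

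Some markers of tissue next to the cortex were measured at low levels. Of 7 adipose genes tested 6 were higher (4 without mouse 6), beside 15.7% of all genes. Adipoq, Plin1, Cfd and Retn among them are listed at 0 in all controls and passed the minimum through the IRI kidneys alone, so the count describes these genes only. For all adipose genes together, the summed FPKM was 5.83 to 39.01 in IRI kidneys, highest in replicates 6 and 1, against 5.58 to 7.58 in controls. The defining markers Adipoq, Plin1 and Cfd reached 3.45, 0.526 and 20.97 FPKM in replicate 6. Of 9 urothelial genes tested 2 were higher, the basal keratins Krt5 and Krt14, beside 15.7% of all genes. Sums of the urothelial list were 2.60 to 19.8 FPKM in IRI kidneys and 0.291 to 4.03 in controls. Krt5 stood at 0.930 to 5.29 FPKM in IRI kidneys and at 0 to 0.362 FPKM in controls. Krt15 was not called (log2 fold change 3.59, limma adjusted p = 0.07) but was with the mouse as a block (0.013), and when IRI replicate 5 or control replicate 3 or 6 was left out (2.91 to 4.67 over the 12 libraries). Of 3 adrenal genes tested none was called (sums of 3.57 to 6.37 FPKM in IRI kidneys and 5.64 to 8.77 in controls). Of 6 blood genes 1 was lower, beside 7.39% of all genes. It was Slc4a1, an anion exchanger that intercalated cells express as well. The part of these tissues in the other results was not tested.

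Among genes called higher and averaging 10 FPKM or more in IRI kidneys, Angptl7, Cyp4a14, C3, Ugt1a9 and Fosl1 varied most between the 6 IRI kidneys. Cyp4a14, a fatty acid hydroxylase, stood at 52.3, 87.2 and 726 FPKM in IRI kidneys and at 22.5, 38.6 and 69.2 FPKM in controls, with overlap. C3, the central complement component, stood at 4.76, 7.71 and 65.6 FPKM in IRI kidneys and at 2.12, 2.76 and 4.60 FPKM in controls, without overlap. Replicate 6 was the highest kidney for both. Cyp4a14 had a log2 fold change of 1.59 (limma adjusted p = 0.032) and of 1.23 without mouse 6, and its call was lost without IRI replicate 1 or 4 or control replicate 1, 3 or 4 (1.07 to 1.82 over the 12 libraries) and with libraries scaled to an equal median (1.36). Angptl7, an angiopoietin-like secreted protein, went the other way, with 16.4 to 81.1 FPKM in IRI replicates 1 to 5, 1.71 FPKM in replicate 6 and 1.86 to 6.01 FPKM in controls (log2 fold change 2.7, and 3.26 without mouse 6). Ugt1a9, a glucuronosyltransferase that shares exons with its neighbours, was called with all mice (log2 fold change 1.74, limma adjusted p = 0.036) and not with the mouse as a block (0.055) or without mouse 6 (0.97). The call was also lost without IRI replicate 1, 3 or 6 or control replicate 2, 4 or 6 (1.21 to 2.03 over the 12 libraries) and with the equal median (1.5).

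To ask which changes belonged to the severe injury, the difference of IRI minus control after 40 minutes was tested against the same difference after 20 minutes on day 1, each against its own controls. Of 14298 genes the severe effect was higher for 890 (6.22%) and lower for 727 (5.08%). Of the 2244 genes that rose after 40 minutes, 833 rose by more than after 20 minutes, and of the 1055 that fell, 648 fell by more. Without mouse 6 of the severe group the counts were 1000 (7.0%) and 835 (5.84%). Which direction held more genes depended on the processing, with 720 higher and 854 lower when libraries were scaled to an equal median, and 759 and 789 without mouse 6 of the 20 minute groups. Among genes also called against control and averaging 1 FPKM or more in a group of the severe injury, the largest differences upwards were those of Popdc3, Sprr2f, Calcb, Gml and Crct1. Popdc3, a popeye domain membrane protein, stood at 1.55, 3.63 and 5.26 FPKM in IRI kidneys after 40 minutes, and the highest of the 6 IRI kidneys after 20 minutes held 0.0842 FPKM. It is listed at 0 in the controls of the severe group. Calcb, which encodes a form of calcitonin gene-related peptide, stood at 0.510, 1.06 and 5.49 FPKM after 40 minutes, the highest in replicate 1, and at most at 0.211 FPKM after 20 minutes.

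Under these limits the largest differences downwards were those of Serpina1c, Adgrg4, Ido2, Serpina1e and Mpped1. Serpina1c stood at 1.08 FPKM or less in IRI kidneys after 40 minutes and at a median of 21.6 and a highest value of 26.1 FPKM after 20 minutes, and the difference of effects was -8.94 on the log2 scale (limma adjusted p = 4.2e-06). Ido2, an enzyme of tryptophan breakdown, stood at 0 to 0.0673 FPKM after 40 minutes and at 1.64, 2.51 and 3.38 FPKM after 20 minutes. By lists, the difference was lower for 12 of 19 S3 genes (median -1.3), 9 of 15 thick ascending limb genes (median -1.4), 8 of 20 S1 and S2 genes (median -0.94), 6 of 12 distal convoluted tubule genes and 7 of 17 NAD genes, beside 5.08% of all genes. It was higher for 14 of 21 injured epithelium genes, 13 of 32 actin genes, 6 of 14 pericyte and fibroblast genes, 3 of 10 neutrophil genes and 2 of 16 macrophage genes, beside 6.22%.

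The same test was made against day 3 after 40 minutes. Of 14297 genes the day 1 effect was higher for 169 (1.18%) and lower for 356 (2.49%). Without mouse 6, whose IRI library resembles day 3, the counts were 361 (2.53%) and 660 (4.62%). The number higher was 112, 102 and 94 without mouse 1, 3 or 5, and the number lower was 221 and 227 without mouse 2 or 5. Under the same limits as for 20 minutes, genes higher on day 1 were Stfa2l1, Vgf, Pvalb and Sass6, among others. Stfa2l1, a stefin of granulocytes, stood at 0.930 to 1.93 FPKM in IRI replicates 1 to 5, is listed at 0 in replicate 6 and in all controls, and is listed at 0 in all 6 IRI kidneys of day 3. Vgf stood at 4.44 to 11.4 FPKM in replicates 1 to 5, at 0.471 FPKM in replicate 6 and at 0 to 0.721 FPKM in the IRI kidneys of day 3. Pvalb was higher only in the sense of a smaller fall, since its log2 difference from control was -4.89 on day 1 and -9.82 on day 3. It is listed at 0 in 5 of the 6 IRI kidneys of day 3, and the highest held 1.14 FPKM. The size of the day 3 fall therefore follows the 0.01 FPKM added. Sass6, a centriole assembly protein, stood at 0.518, 1.09 and 1.47 FPKM in IRI kidneys of day 1 and at 0.903, 1.06 and 1.30 FPKM on day 3, and its control medians were 0.0155 FPKM on day 1 and 0.673 FPKM on day 3.

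Among genes also called against control and averaging 1 FPKM or more in a day 1 group, those lowest on day 1 relative to day 3 were Slpi, Il1rn, Dlgap5, Plk1 and Ccnb2, of which the last 3 serve mitosis. Ccnb2, cyclin B2, stood at 0.850 to 1.75 FPKM in IRI replicates 1 to 5, at 12.3 FPKM in replicate 6, at 0.142 to 0.935 FPKM in controls and at 12.6 to 26.3 FPKM in the IRI kidneys of day 3. Plk1, the polo-like kinase, stood at 0.848 to 1.27 FPKM in replicates 1 to 5, at 5.82 FPKM in replicate 6, at 0.116 to 0.521 FPKM in controls and at 5.32 to 8.65 FPKM on day 3. Both were nevertheless higher than control on day 1 without mouse 6 (log2 fold changes 1.9 and 1.99, limma adjusted p = 0.0032 and 8.5e-04). Slpi, a secreted inhibitor of leukocyte proteases, stood at 3.46, 5.64 and 8.09 FPKM in IRI kidneys on day 1 and at 3.77, 9.69 and 13.3 FPKM on day 3, with control medians of 0.337 and 0 FPKM. Il1rn, the interleukin-1 receptor antagonist, was called against control with all mice (log2 fold change 2.16, limma adjusted p = 0.016) and not without mouse 6 (1.83, adjusted p = 0.06). By lists, without mouse 6 the day 1 effect was lower for 6 of 16 macrophage genes (2 with it) and 5 of 24 peroxisomal genes (4 with it), beside 4.62% of all genes. It was higher for 4 of 14 endothelial genes (2 with mouse 6), 4 of 21 injured epithelium genes (2), 5 of 25 ribosome biogenesis genes (3), 2 of 10 neutrophil genes (0) and 4 of 32 actin genes (0), beside 2.53%. Pericyte and fibroblast genes went both ways, with 4 of 14 lower and 2 higher, Tagln and Acta2 (0 and 1 with mouse 6).

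**Figure D5:**
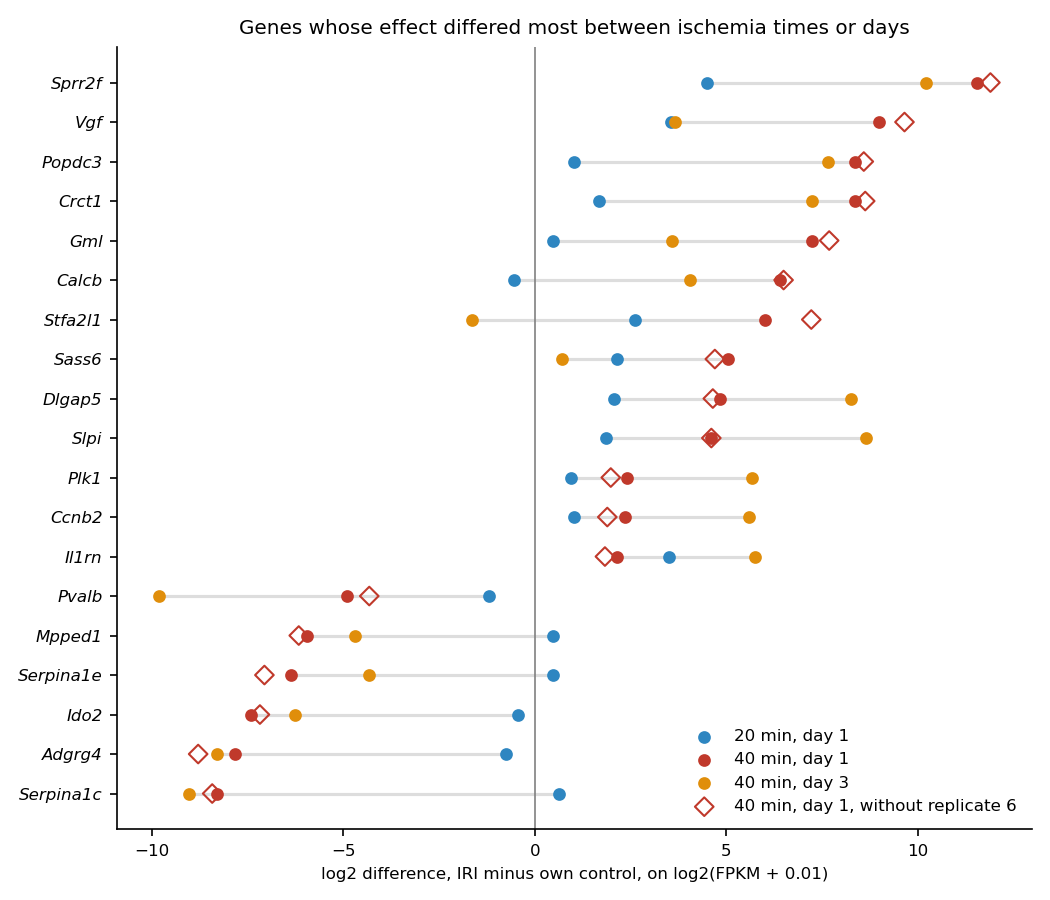
Log2 difference between IRI and own control kidneys, on log2(FPKM + 0.01), after 20 minutes on day 1, 40 minutes on day 1 (also without replicate 6) and 40 minutes on day 3, for genes whose effect differed most between ischemia times or days. Serpina1c lies at 0.64 after 20 minutes and at -8.3 after 40 minutes, and Plk1 and Ccnb2 lie at 2.4 and 2.37 on day 1 and at 5.68 and 5.61 on day 3.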

How the data were processed

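Cortex RNA of 24 mice (48 libraries) was sequenced by the authors after mRNA enrichment, reads were filtered with FastQC 0.11.7 and aligned to GRCm38 with HISAT2 2.1.0, and Ballgown gave the deposited FPKM per transcript, normalized by library size and gene length. Of 33953 transcripts, 33871 were found in GENCODE M21, and FPKM was summed per symbol (14238 symbols, and 82 transcripts kept as they are). Symbols of near-identical or overlapping genes may share reads.

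Genes averaging 0.01 FPKM or more over the kidneys fitted were tested on log2(FPKM + 0.01) with limma 3.58.1 in R 4.3.3 (eBayes with trend), without the mouse as a block, as the methods name none. Differences of effects were contrasts over 4 groups. Only the groups compared entered a fit, and the fits were tested on simulated data. Read pairs were estimated from steps in low FPKM, and precision is given as the spread over 6 kidneys. Left and right kidneys of a number come from 1 mouse; their deviations from the group means correlated with a median r of 0.05 (own kidney closest for 3 of 6).

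Genes were named by rule: Krt20, Havcr1 and Lcn2; the 10 largest rises and 10 largest falls by fold among called genes without overlap and averaging 1 FPKM or more in the higher group; the 10 largest gains and losses in FPKM; 3 genes of each of 26 lists by adjusted p; the 5 most variable called genes with at least 10 FPKM; and 5 genes for each direction of each difference of effects. Members and lists were chosen with earlier results of these data known. Alternatives were the FPKM added, the minimum, the scaling, the trend, the mouse as a block, and leaving out each mouse and each library; leaving out mouse 6 of the 20 minute groups was chosen after seeing the data.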

Additional observations from a re-analysis of the deposited data

Results flagged for a closer look

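In groups of 6 kidneys, a value counts as far from the others when its gap to the nearest exceeds 0.625 of the group's range. The 308 groups of values tested were 128 named genes and 26 list sums in IRI and in control kidneys. Of these, 53 had such a value, and 33 of the 53 were in IRI replicate 6. For normally distributed values the limit is passed by about 5% of groups. That is no chance rate for this set, because some groups hold mostly 0 and some genes were named for their spread over these kidneys. In FPKM, the kidney labelled IRI replicate 6 was the highest of its group for Adgrg4 (0.697), A4gnt (0.766), Slc34a1 (663), Miox (423), Akr1c21 (283), Ass1 (842), Slc3a1 (144), Aadat (28.4), Nkg7 (0.980), Pink1 (69.3), Haao (57.7), Aldh4a1 (75.5), Mc2r (0.411), Cfd (20.97), Cyp4a14 (726), C3 (65.6), Ugt1a9 (53.3), Dlgap5 (4.62), Plk1 (5.82) and Ccnb2 (12.3). It was the lowest for Havcr1 (171), Spp1 (3310), Kap (2032), Slc7a13 (3.02), Psma5 (58.1), Psmb5 (126) and Kpnb1 (42.1). Among summed levels it was the highest for the proximal tubule S1 and S2 list (6011), the lymphocyte list (4.71), the TCA cycle list (2636) and the arginine, creatine and polyamine metabolism list (1767), and the lowest for the proteasome list (2280) and the nuclear transport list (465).

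Outside replicate 6, IRI replicate 1 was the highest for Serpina1c (1.08) and Calcb (5.49) and IRI replicate 5 for Tagln2 (219). Among controls, replicate 1 was the highest for Sprr2g (0.125), Kmo (50.8) and Grp (0.141). Control replicate 2 was the highest for Postn (0.848) and Sass6 (0.475) and the lowest for Plin2 (24.9). Control replicate 3 was the highest for Sostdc1 (82.6) and Calcb (0.103). Control replicate 4 was the highest for Kl (189) and Sdha (315) and the lowest for S100a10 (78.7). Control replicate 6 was the highest for Fosl1 (0.193), Eng (29.8), Flt1 (16.4), Plac8 (22.1), Krt14 (0.195) and the adipose list (7.58). 

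The effect of 40 minutes on day 1 differed from another effect by a test of the difference itself (limma). Against 20 minutes on day 1 it was higher, on the log2 scale, for Popdc3 (7.35), Sprr2f (7.06), Calcb (6.96), Gml (6.76) and Crct1 (6.66), and lower for Serpina1c (-8.94), Adgrg4 (-7.08), Ido2 (-6.96), Serpina1e (-6.85) and Mpped1 (-6.41). Against 40 minutes on day 3 it was higher for Stfa2l1 (7.66), Grp (6.04), Vgf (5.31), Pvalb (4.93) and Sass6 (4.33), and lower for Slpi (-4.06), Il1rn (-3.61), Dlgap5 (-3.42), Plk1 (-3.28) and Ccnb2 (-3.24).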

How the results depend on the processing

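Among the 128 genes named by rule, no called gene changed sign under the alternatives run. Hba-a2 and Hbb-bt, neither called, did so near 0. Genes named after their values were seen were not checked for this. With 1 FPKM added to every value, the main comparison called 1210 genes higher and 632 lower (2244 and 1055 with 0.01), the difference from 20 minutes on day 1 was higher for 535 and lower for 455, and that from 40 minutes on day 3 was higher for 91. Leaving out 1 mouse or library moved the main counts between 2072 and 2345 higher and 961 and 1165 lower, those against 20 minutes between 723 and 1000 and between 657 and 835, and those against day 3 between 94 and 361 higher and between 221 and 660 lower. The highest of these counts came without mouse 6, except that of 1165, which came without the IRI kidney of mouse 6 alone. Leaving out mouse 6 of the 20 minute groups, chosen after seeing the data, gave 759 higher and 789 lower, and scaling to an equal median gave 720 and 854, so in both more genes were lower than higher, against 890 and 727. With the mouse as a block, the main comparison called 2236 higher and 1048 lower, 2202 and 1030 of them also called without the block, and of 128 named genes Ugt1a9 lost and Krt15 gained a call. Of the named genes, 12 lost a call with 1 FPKM added, 7 lost and 4 gained one with libraries scaled to an equal median, and 2 lost and 2 gained one without mouse 6. The cause of these shifts was not tested. Folds of genes listed at 0 in controls follow the FPKM added, and depth limits how well control values near 0 are measured.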
